A study of Rattus norvegicus with 8 samples.

Results

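The 10 genes described here build fatty acids from acetyl-CoA in the liver, or feed and drive that pathway: Slc25a1, Acly, Acss2, Me1, Acaca, Acacb, Fasn, Pklr, Mlxipl and Thrsp. They were taken as a fixed list of symbols and found on the array through the accession that the scanner files give each probe. The list covered 12 of 41012 non-control probes and 10 of 13452 named genes, with 2 probes each for Fasn and Me1 and 1 for every other gene. All 12 probes passed the filter on dim spots, which asked for signal well above background in either colour on at least 4 of 8 arrays.

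Male Zucker diabetic fatty rats aged 12 weeks gave the liver RNA, which was hybridised to 8 dual-colour Agilent arrays, 4 for each genotype. The obese animals were fa/fa, which lack a working leptin receptor in every tissue, and the lean animals were fa/+, which carry 1 copy of the same mutation, so neither genotype was free of the allele. On every array the Cy5 channel held RNA from livers of rats that received testosterone undecanoate (TU) and the Cy3 channel held RNA from livers of vehicle rats. TU, a slowly released ester of testosterone, was dosed subcutaneously over 4 weeks, at 20 mg/kg body weight, at 3-day intervals at first and weekly later. The 4 groups of RNA were thus obese TU, obese vehicle, lean TU and lean vehicle. The labels call the arrays biological replicates, but do not say that each RNA came from 1 animal, and p-values measure the spread between these arrays. Each ± value is the SE of the limma fit, which shares 1 estimate of spread between the genotypes. It is not the SE of 1 genotype's arrays alone.

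In lipogenesis, citrate made in mitochondria leaves through a carrier and is split in the cytosol into acetyl-CoA, which is carboxylated to malonyl-CoA and then condensed into palmitate with NADPH as the reductant. The transcripts of the pathway are switched on by insulin through SREBP-1c and by glucose through ChREBP, the product of Mlxipl, and they fall in fasting. Livers of rats without leptin signalling are known for a high rate of this synthesis. The study title names testosterone control of liver lipid metabolism and its dependence on leptin as the question.

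Promoter sequences were matched for 8 of the 10 genes, from RefSeq on the GRCr8 assembly, each running from 250 bases before to 50 bases after the gene start. Acaca and Fasn had no entry in the table. Those of Acly (chr10:85963582-85963881, minus strand), Slc25a1 (chr11:96559804-96560103, plus strand), Me1 (chr8:96540195-96540494, minus strand) and Pklr (chr2:176841014-176841313, plus strand) are shown as examples. Their windows hold several matches (Acly, Slc25a1 and Me1) or none (Pklr), and the windows of the other members are not shown. Capitals mark the CCAAT box (CCAAT, or ATTGG on the other strand) and the GC box (GGGCGG, or CCGCCC on the other strand).
Acly: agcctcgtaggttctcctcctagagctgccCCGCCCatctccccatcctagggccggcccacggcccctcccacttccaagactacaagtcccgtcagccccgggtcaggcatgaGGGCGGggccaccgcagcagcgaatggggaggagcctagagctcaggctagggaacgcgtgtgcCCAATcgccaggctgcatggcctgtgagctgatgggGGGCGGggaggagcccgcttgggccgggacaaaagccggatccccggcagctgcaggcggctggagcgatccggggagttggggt
Slc25a1: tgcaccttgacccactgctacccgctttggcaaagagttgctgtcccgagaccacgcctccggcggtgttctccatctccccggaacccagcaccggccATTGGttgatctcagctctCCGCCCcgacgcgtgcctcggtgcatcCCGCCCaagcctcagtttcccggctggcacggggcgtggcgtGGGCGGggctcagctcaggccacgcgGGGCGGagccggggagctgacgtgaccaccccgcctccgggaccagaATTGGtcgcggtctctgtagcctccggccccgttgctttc
Me1: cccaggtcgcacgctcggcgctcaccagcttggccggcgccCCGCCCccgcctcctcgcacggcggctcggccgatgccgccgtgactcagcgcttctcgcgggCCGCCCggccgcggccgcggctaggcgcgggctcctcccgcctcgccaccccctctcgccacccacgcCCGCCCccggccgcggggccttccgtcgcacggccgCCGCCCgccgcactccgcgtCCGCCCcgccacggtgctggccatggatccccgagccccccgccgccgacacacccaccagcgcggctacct
Pklr: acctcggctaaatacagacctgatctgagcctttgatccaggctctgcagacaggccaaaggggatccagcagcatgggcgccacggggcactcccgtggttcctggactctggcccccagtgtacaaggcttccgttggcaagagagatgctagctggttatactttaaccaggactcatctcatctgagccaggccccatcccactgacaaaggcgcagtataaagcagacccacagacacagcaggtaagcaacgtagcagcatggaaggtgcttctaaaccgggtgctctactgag
A CCAAT box was found in 6 of the 8 genes (Acly, Acacb, Slc25a1, Acss2, Thrsp and Mlxipl), against 37.5% of 33469 promoters of the same length. A GC box was found in 5 of 8 (Acly, Me1, Slc25a1, Acss2 and Thrsp), against 33.1%. Pklr had neither. No window held the exact letters of the E-box CACGTG or the sterol element TCACNCCAC on either strand, which 6.42% and 1.12% of all promoters held. Looser forms of these elements were not searched. A match, or none, describes the letters of these windows only.

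Across all 8 arrays, 50.5% to 60.6% of probes lay well above background in Cy5 and 58.5% to 69.1% in Cy3. The member probes did so in both colours on all 8 arrays with 1 exception. The Acacb probe was well above background in Cy5 on 4 obese arrays and 1 lean array, and in Cy3 on 4 obese and 3 lean arrays. The Acaca spot of lean replicate 3 was marked non-uniform and dropped, so its lean values rest on 3 arrays. Obese replicate 2 stood apart: its log2 ratios over all probes had an SD of 0.46, against 0.15 to 0.25 on the other arrays. All lean arrays shared 1 slide and scan and all obese arrays another, and in any comparison of obese with lean liver the slide and the genotype cannot be told apart. The dyes were never swapped, and dye bias of a probe cannot be told apart from its response to TU. Of 7 adipocyte markers, 4 passed the filter on dim spots (Cfd, Fabp4, Retn and Cidea). Adipoq and Lep did not pass it, and Plin1 was not among the named probes. All 9 hepatocyte markers passed. These are whole livers, in which fewer cells of a type and less RNA per cell cannot be told apart.

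Under TU in obese liver, all 10 genes lay below 0 by their brighter probe, with a median log2 ratio of -0.69, against -0.012 over all 26979 probes tested, of which 53.6% lay below 0. None of the 12 member probes passed an adjusted p of 0.05 (limma, Benjamini-Hochberg over all probes), a threshold that 0.00741% of all probes passed as lower. At an unadjusted p under 0.05, 10 of the 12 member probes were lower, against 9.13% of all probes. These p-values use the spread shared with the lean arrays. Each member probe's ratios had a larger SD in obese than in lean liver, as for Pklr (1.05 and 0.38) and Acly (0.63 and 0.62). With the obese arrays fitted alone, 2851 of all probes were under 0.05 in either direction, against 4723 in the main fit. Of the 12 member probes, 5 lay below 0 on every obese array (1 probe each of Fasn and Me1, and Slc25a1, Mlxipl and Pklr), against 12.9% of all probes. With ratios scaled between arrays 3 member probes passed as lower in obese liver (limma adjusted p = 0.0344 for the brighter Me1 probe, 0.0467 for the dimmer Fasn probe and 0.0483 for Pklr), and none did in the other settings tried. With scaled ratios 191 of all probes passed as lower, against 2 in the main fit.

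Me1, the malic enzyme that makes NADPH while turning malate into pyruvate, had the lowest mean ratio in obese liver. Its brighter probe read -2.58, -1.64, -1.47 and -0.60 on obese replicates 1 to 4 (SD 0.81). It averaged -1.57 ± 0.30 over these 4 arrays (limma SE), or 2.98-fold lower (limma adjusted p = 0.0898). All 4 arrays were below 0, but they spanned 1.98 log2 units. The dimmer Me1 probe read -1.50, -1.38, -1.37 and 0.094, a mean of -1.04 ± 0.26 (adjusted p = 0.136). On that probe 3 arrays lay close together and replicate 4 lay above 0. In the lean livers the brighter probe gave -0.55, -1.34, -0.0045 and 0.066 (mean -0.46 ± 0.30, adjusted p = 0.507), and the dimmer gave 0.035, -0.81, 0.22 and 0.26 (mean -0.076 ± 0.26, adjusted p = 0.927). Lean replicate 2 alone was below -1 on the brighter probe, and without it the dimmer probe's lean mean was 0.17.

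Pklr, the liver pyruvate kinase that ends glycolysis and is a well known target of ChREBP, followed. Its ratios were -1.37, -2.62, -0.80 and -0.15 on obese replicates 1 to 4 (mean -1.24 ± 0.32 SE, 2.35-fold lower, limma adjusted p = 0.143). All 4 arrays were below 0, with the lowest on replicate 2. In lean liver they were -0.80, -0.71, -0.015 and -0.23 (mean -0.44 ± 0.32, adjusted p = 0.562).

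Fasn, the multifunctional enzyme that assembles palmitate, had the lowest mean ratios in lean liver and also lay below 0 in obese liver. The dimmer of its 2 probes read -1.95, -1.91, -1.26 and -1.02 on lean replicates 1 to 4. That probe averaged -1.54 ± 0.26 over these 4 arrays (limma SE) and was 2.90-fold lower under TU. It was the only member probe that passed in any TU comparison (limma adjusted p = 0.0387), against 0.375% of 26913 probes that passed as lower in lean liver. The brighter probe read -1.69, -1.97, -1.26 and -0.62 on the same arrays (mean -1.38 ± 0.31, adjusted p = 0.0730). Both probes were below 0 on all 4 lean arrays, with replicates 1 and 2 the lowest. The call of the dimmer probe was lost without any 1 of the 4 lean arrays (adjusted p = 0.0644 to 0.188) or without obese replicate 3 (0.0633), with trend and robust variance settings (0.192) and with local backgrounds as deposited (0.0741). Without obese replicate 2 both Fasn probes passed in lean liver (adjusted p = 0.00965 and 0.0237), as did Mlxipl (0.0317). Of all probes, 881 then passed as lower in lean liver, against 101 in the main fit. In obese liver the dimmer probe read -1.65, -1.82, -0.80 and -0.15 (mean -1.10 ± 0.26, adjusted p = 0.122). The brighter read -1.78, -1.82, -0.93 and 0.048 (mean -1.12 ± 0.31, adjusted p = 0.151). Replicate 4 was close to 0 on both.

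The enzymes and carrier that supply acetyl-CoA gave smaller ratios. Acly, ATP citrate lyase, which splits cytosolic citrate, read -1.47, -0.93, 0.029 and -0.54 on obese replicates 1 to 4 (mean -0.73 ± 0.26 SE, limma adjusted p = 0.217). In lean liver it read -1.11, -1.63, -0.80 and -0.16, below 0 on each array (mean -0.93 ± 0.26, adjusted p = 0.122). Its ratios in the 2 genotypes overlapped over most of their range. Slc25a1, the mitochondrial citrate carrier, read -0.41, -1.59, -0.12 and -0.16 in obese liver (mean -0.57 ± 0.21, adjusted p = 0.232) and -0.36, -0.41, -0.19 and -0.018 in lean liver (mean -0.24 ± 0.21, adjusted p = 0.634). It was below 0 on all 8 arrays, and obese replicate 2 alone was below -1. Acss2, the cytosolic synthetase that makes acetyl-CoA from acetate, read -0.99, -1.80, 0.060 and -0.019 in obese liver (mean -0.69 ± 0.26, adjusted p = 0.241), where replicates 1 and 2 alone were clearly below 0. In lean liver it lay between -0.30 and 0.11 (mean -0.13 ± 0.26).

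The 2 acetyl-CoA carboxylases had the ratios nearest to 0 in obese liver. Acaca, the cytosolic form that commits acetyl-CoA to fatty acid synthesis, read 0.074, -1.36, -0.16 and -0.017 on obese replicates 1 to 4 (mean -0.36 ± 0.21 SE, limma adjusted p = 0.390). Replicate 2 alone was far below 0, and the mean was -0.032 without it. On the 3 lean arrays measured it read 0.088, 0.21 and 0.20 (SD 0.065). Its limma mean was 0.16 ± 0.24 (adjusted p = 0.807), the only member mean above 0 in lean liver. With median centring in place of loess it stood at -0.042 and Acacb at 0.0010. Acacb, the form at the mitochondrial surface whose malonyl-CoA restrains fatty acid oxidation, read -0.24, -0.85, 0.020 and -0.0098 in obese liver (mean -0.27 ± 0.13, adjusted p = 0.304). In lean liver it lay between -0.15 and 0.039 (mean -0.061 ± 0.13), at a signal near background.

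The regulators lay lower in both genotypes without passing. Thrsp, a small protein that supports lipogenesis and responds to thyroid hormone and carbohydrate, read -1.49, -1.32, 0.18 and -0.098 on obese replicates 1 to 4 (mean -0.68 ± 0.29 SE, limma adjusted p = 0.275) and -1.12, -1.57, -0.48 and -0.39 on lean replicates 1 to 4 (mean -0.89 ± 0.29, adjusted p = 0.173). The lean arrays were all below 0, and the obese ones split between replicates 1 and 2 and replicates 3 and 4. Mlxipl, which encodes ChREBP, read -0.52, -1.27, -0.27 and -0.14 in obese liver (mean -0.55 ± 0.16, adjusted p = 0.169) and -0.60, -0.47, -0.37 and -0.12 in lean liver (mean -0.39 ± 0.16, adjusted p = 0.273). It was below 0 on all 8 arrays.

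**Figure D1:**
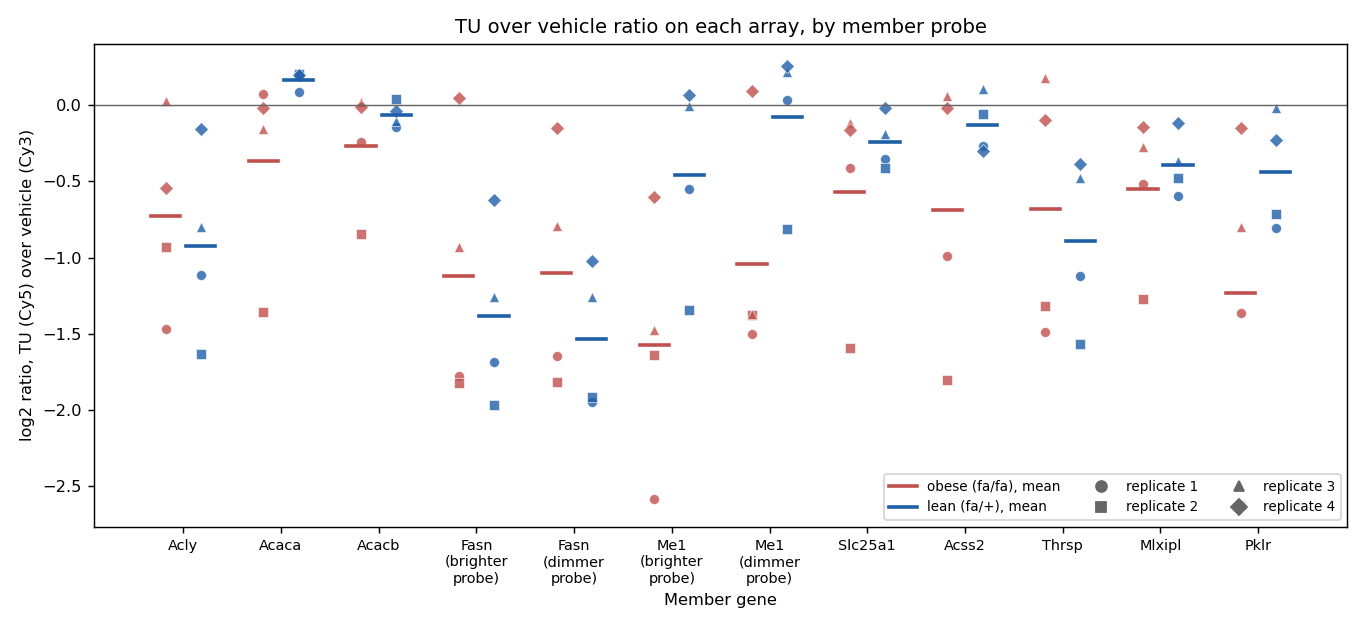
Log2 ratio of TU (Cy5) over vehicle (Cy3) for each member probe, with 1 marker per array by replicate number, obese arrays in red at the left of each pair and lean arrays in blue at the right; horizontal lines are means of up to 4 arrays. Obese means run from -1.57 (Me1) to -0.27 (Acacb) and lean means from -1.54 (Fasn) to 0.16 (Acaca), and most obese markers of replicates 3 and 4 lie above those of replicates 1 and 2.

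In lean liver as a whole, 9 of the 10 genes lay below 0, with a median of -0.41, against -0.016 over all 26913 probes, of which 56.0% lay below 0. At an unadjusted p under 0.05, 5 of the 12 member probes were lower (both of Fasn, Acly, Thrsp and Mlxipl), against 8.81% of all probes. Of the 11 member probes measured on all 4 lean arrays, 7 lay below 0 on each of them (both of Fasn, Acly, Slc25a1, Thrsp, Mlxipl and Pklr), against 17.4% of all probes. The number of member probes that passed in lean liver was 1, and over the settings tried it ran between 0 and 5, with 5 under median centring and with one genotype alone (both of Fasn, Acly, Thrsp and Mlxipl). Of all probes, 2931 passed as lower under median centring and 602 with one genotype alone, against 101 in the main fit.

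Array by array, the median log2 ratio of the member genes was -1.18, -1.47, -0.14 and -0.12 on obese replicates 1 to 4, and -0.57, -0.59, -0.19 and -0.14 on lean replicates 1 to 4. In each genotype replicates 1 and 2 were lower than replicates 3 and 4. The labels do not say that a replicate number links animals of the 2 genotypes. The hepatocyte markers, as a median of 9 genes, read -0.11, -0.57, 0.35 and 0.17 on obese replicates 1 to 4 and 0.14 to 0.41 on the lean arrays. The erythroid markers, as a median of the 3 that passed, read -0.28, -1.54, 0.49 and -0.064 on obese replicates 1 to 4 and 0.51 to 1.30 on the lean arrays. Both marker lists were lowest on obese replicate 2, as the members were, and so were the cholangiocyte markers (-0.20). Other lists differed. Stellate cell (0.41), sinusoidal endothelium (0.19) and pancreas markers (0.38) were highest on that array. Kupffer cell (-0.17) and adipocyte markers (0.13) were neither lowest nor highest there. The part of the markers in the member ratios was not tested. Without obese replicate 2, all 10 genes still lay below 0 in obese liver, their median was -0.39 and no member probe passed, with 8 at an unadjusted p under 0.05.

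**Figure D2:**
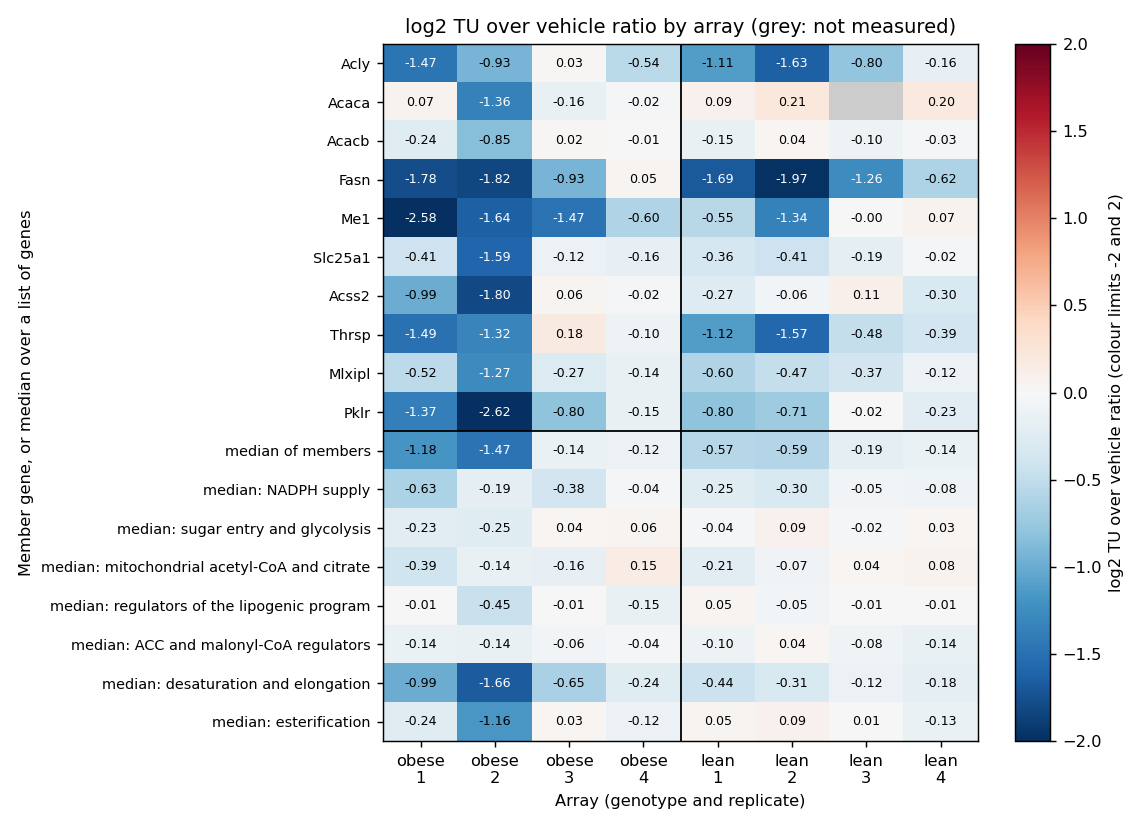
Log2 TU over vehicle ratio of each member gene by its brighter probe (upper block) and the median over the members and over 7 lists of related genes (lower block), with obese arrays left and lean arrays right; blue is lower and red is higher under TU, and grey is not measured. The member median is below -1 on obese replicates 1 and 2 only, and among the lists desaturation and elongation comes nearest, at -0.99 and -1.66 on those arrays.

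The test of the difference between the genotypes compared the TU response of obese with that of lean liver. No member probe passed, and neither did any other of the 26911 probes (0% called by limma, with 9.42% of all probes and 2 of 12 member probes at an unadjusted p under 0.05). Both of those member probes were of Me1, with differences of -1.12 ± 0.43 (SE, 95% interval -2.08 to -0.15, adjusted p = 0.487) and -0.96 ± 0.37 (interval -1.81 to -0.12, adjusted p = 0.492). Pklr differed by -0.80 ± 0.46 (interval -1.83 to 0.23), Acss2 by -0.56 ± 0.37 (-1.40 to 0.28) and Acaca by -0.53 ± 0.32 (-1.26 to 0.21). Fasn lay the other way by 0.26 ± 0.43 (-0.72 to 1.24) on its brighter probe and 0.43 ± 0.37 (-0.41 to 1.27) on its dimmer one, Thrsp by 0.21 ± 0.42 (-0.73 to 1.14) and Acly by 0.20 ± 0.36 (-0.62 to 1.02). The median difference over the member genes was -0.27, against -0.0048 over all probes. With median centring in place of loess it was 0.0025, where the median of all probes was 0.15. The intervals are wide, and a p that missed the threshold does not show that the 2 genotypes responded alike.

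Obese over lean liver was compared within 1 dye at a time, first under TU (Cy5). Of the 12 member probes, 7 were higher in obese liver, of 6 genes (Fasn, Acly, Thrsp, Slc25a1, Acacb and Acss2), and none was lower, against 12.8% and 9.36% of 26911 probes. All 10 genes lay above 0, with a median log2 difference of 0.62, against 0.026 over all probes, of which 53.8% lay above 0. Of 11 member probes measured on all arrays, 6 had every obese array above every lean array (Fasn by its brighter probe, Acly, Thrsp, Slc25a1, Acacb and Acss2), against 16.4% of all probes. In this colour the obese and lean arrays of the same replicate number deviated together (r from 0.19 to 0.62), though obese replicate 2 matched lean replicate 3 best. The labels give no link between the numbers. With the replicate number as a block Acss2 no longer passed (limma adjusted p = 0.0657) and Mlxipl did (0.0483). Acacb reached the filter on dim spots through its obese arrays. Leaving it out, 6 of 11 member probes were higher under TU and 7 of 11 under vehicle, with medians of 0.77 and 1.14 over the other 9 genes.

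Under vehicle (Cy3), 8 of 12 member probes were higher in obese liver, again of 6 genes (Fasn, Me1, Pklr, Thrsp, Slc25a1 and Acacb), and none was lower, against 10.3% and 8.07% of 26911 probes. The median log2 difference of the 10 genes was 1.12, against 0.023 over all probes, of which 53.7% lay above 0. Of the 11 probes measured on all arrays, 8 had every obese array above every lean array (both of Fasn, both of Me1, Pklr, Thrsp, Slc25a1 and Acacb), against 16.1% of all probes. The counts depended on the arrays used. Leaving out any 1 lean array left 2 of the 8 calls under vehicle, without obese replicates 1, 2, 3 or 4 the count was 6, 6, 10 and 3, and it was 3 with no filter and 4 with local backgrounds as deposited. Under TU it was 5, 7, 9 and 4 when obese replicates 1, 2, 3 or 4 were left out, and 3, 3, 4 and 5 when lean ones were. The brighter Fasn probe and the dimmer Me1 probe passed under vehicle whichever array was left out.

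Fasn had the largest genotype difference of the list. Under TU its brighter probe read 15.79, 15.62, 15.30 and 16.51 log2 intensity units on obese replicates 1 to 4, against 12.15, 12.47, 13.33 and 13.48 on lean replicates 1 to 4. It was 7.71-fold higher in obese liver (2.95 ± 0.36 SE, limma adjusted p = 0.00141), with no overlap. Under vehicle it read 17.57, 17.44, 16.23 and 16.46 on the obese arrays, against 13.84, 14.44, 14.59 and 14.10 on the lean arrays, and was 6.43-fold higher (2.68 ± 0.34, adjusted p = 0.00254). On this probe the lowest obese value under TU was above the highest lean value under vehicle. Those 2 values come from different dyes, and no test was made between them. On the dimmer probe obese values under TU (12.16 to 14.58) overlapped lean values under vehicle (13.01 to 13.56). The dimmer Fasn probe gave smaller differences, of 1.84 ± 0.52 under TU (adjusted p = 0.0388) and 1.41 ± 0.40 under vehicle (adjusted p = 0.0457). Under TU its obese values (14.29, 12.16, 13.53 and 14.58) overlapped the lean ones (11.06, 11.65, 12.30 and 12.16) through replicate 2.

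Me1 differed between the genotypes under vehicle. Its dimmer probe read 12.82, 12.79, 12.03 and 12.81 on obese replicates 1 to 4, against 9.81, 10.31, 10.51 and 10.29 on the lean arrays, and was 5.22-fold higher (2.38 ± 0.22 SE, limma adjusted p = 0.000791). Its brighter probe was 2.59-fold higher (1.37 ± 0.40, adjusted p = 0.0489), with 14.09, 12.87, 12.12 and 12.84 against 11.09, 11.91, 11.85 and 11.58. Neither probe overlapped between genotypes under vehicle. Under TU the dimmer probe read 11.32, 11.41, 10.66 and 12.90 in obese liver, against 9.84, 9.50, 10.73 and 10.55 in lean liver (1.42 ± 0.48, adjusted p = 0.0679). The brighter read 11.50, 11.24, 10.65 and 12.24, against 10.54, 10.56, 11.85 and 11.65 (0.26 ± 0.41, adjusted p = 0.702). Under TU the genotypes overlapped on both probes.

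Acly read 15.48, 15.04, 14.78 and 14.94 on obese replicates 1 to 4 under TU, against 13.17, 13.17, 13.57 and 14.14 in lean liver, and was 2.93-fold higher (1.55 ± 0.24 SE, limma adjusted p = 0.00382). Under vehicle it read 16.95, 15.97, 14.75 and 15.49, against 14.28, 14.81, 14.37 and 14.30 (1.35 ± 0.42, adjusted p = 0.0619). The obese values under vehicle spanned 2.20 log2 units, and replicate 3 lay within the lean range. Slc25a1 was 1.70-fold higher in obese liver under TU (0.77 ± 0.18, adjusted p = 0.0194) and 2.14-fold higher under vehicle (1.10 ± 0.30, adjusted p = 0.0417). Its lowest obese value was above its highest lean value in both colours, at 11.20 against 10.94 under TU and 11.32 against 11.01 under vehicle. Acss2 was 1.31-fold higher under TU (0.39 ± 0.11, adjusted p = 0.0415), a call lost with the replicate number as a block. Under vehicle it did not pass (0.95 ± 0.37, adjusted p = 0.111). There the obese arrays ran between 7.41 and 9.23 and the lean arrays between 7.14 and 7.55.

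Acacb read 6.28 to 6.66 in obese liver under TU, against 5.89 to 6.15 in lean liver (difference 0.46 ± 0.10 SE, limma adjusted p = 0.0159). Under vehicle it read 6.41 to 7.13, against 6.03 to 6.13 (0.67 ± 0.15, adjusted p = 0.0208). The lean spots were well above background on 1 of 4 arrays in Cy5 and 3 of 4 in Cy3, so the lean levels are uncertain and no fold is given. Acaca differed by 0.0089 ± 0.082 under TU (interval -0.19 to 0.20, adjusted p = 0.951) and by 0.54 ± 0.34 under vehicle (interval -0.28 to 1.35, adjusted p = 0.324). Its obese values under vehicle were 7.21, 8.62, 7.30 and 7.39, against 7.16, 6.99 and 7.14 on the 3 lean arrays, so replicate 2 made most of the difference. Without background correction, from the scanner's processed signals and with local backgrounds as deposited, its sign under TU turned (-0.011, -0.32 and -0.026).

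Thrsp was 2.55-fold higher in obese liver under TU (1.35 ± 0.32 SE, limma adjusted p = 0.0209), with 13.98, 13.92, 14.17 and 14.50 on obese replicates 1 to 4 against 12.17, 12.20, 13.44 and 13.36 on the lean arrays. Under vehicle it was 2.21-fold higher (1.14 ± 0.32, adjusted p = 0.0444), with 15.47, 15.24, 13.99 and 14.60 against 13.29, 13.77, 13.92 and 13.74. Obese and lean values did not overlap in either colour, but under vehicle the gap was small, between obese replicate 3 and lean replicate 3. Pklr was 3.21-fold higher in obese liver under vehicle (1.68 ± 0.47, adjusted p = 0.0437), with 13.22, 14.63, 12.13 and 12.82 against 11.39, 11.42, 11.60 and 11.66. Under TU it read 11.85, 12.00, 11.33 and 12.67 in obese liver, against 10.59, 10.71, 11.59 and 11.43 in lean liver (0.89 ± 0.32, adjusted p = 0.0876), with an overlap through obese replicate 3. Mlxipl did not pass under TU (0.47 ± 0.17, adjusted p = 0.0808) or under vehicle (0.64 ± 0.24, adjusted p = 0.109). With the replicate number as a block it passed under TU.

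**Figure D3:**
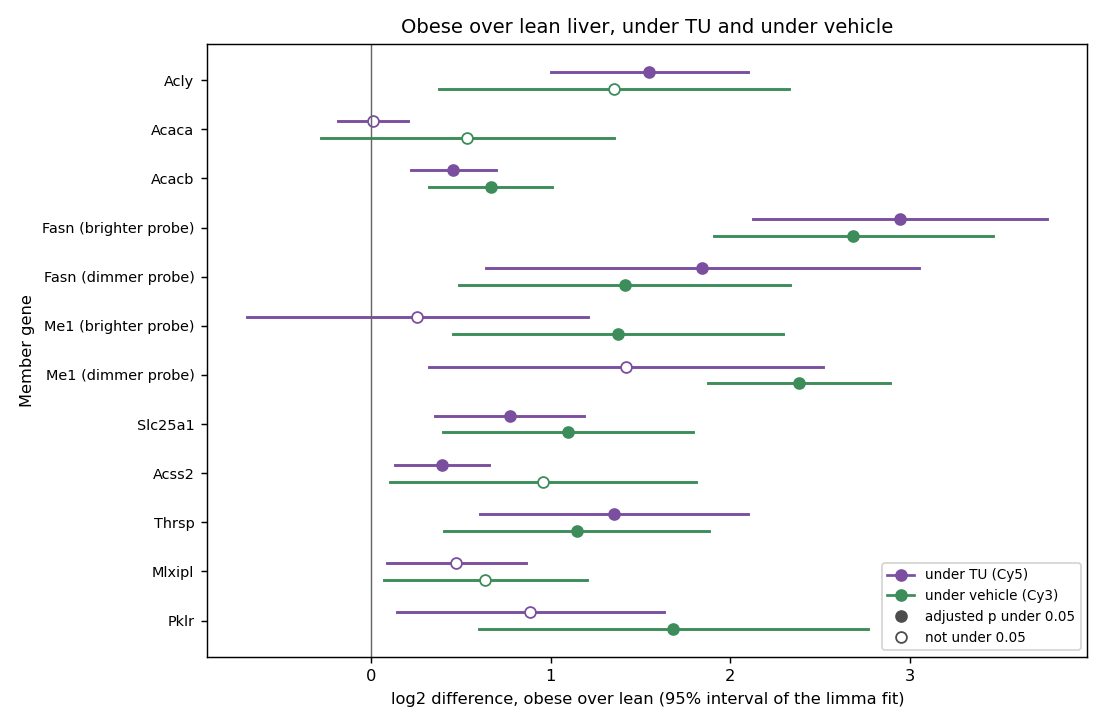
Fitted log2 difference of obese over lean liver for each member probe, under TU (Cy5, purple) and under vehicle (Cy3, green); bars are 95% intervals and filled markers passed an adjusted p of 0.05. Fasn lies farthest to the right by its brighter probe (2.95 under TU, 2.68 under vehicle), and Acaca under TU sits at 0.0089.

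**Figure D4:**
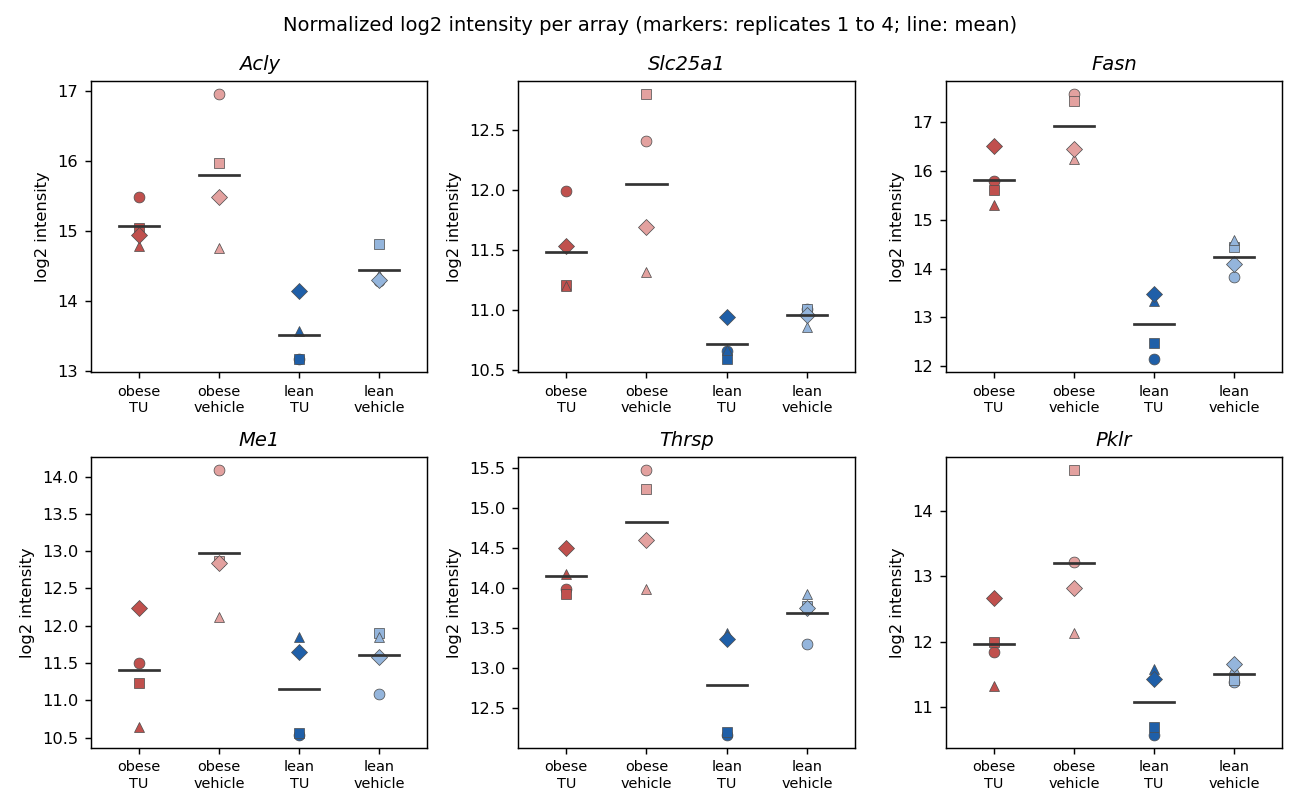
Normalized log2 intensity on each array for 6 members, by the brighter probe, in obese TU, obese vehicle, lean TU and lean vehicle RNA; markers are replicates 1 to 4, lines are means, and each panel has its own axis, so heights are not comparable between genes. For Fasn the obese arrays lie at 15.30 or above and the lean arrays at 14.59 or below, whereas for Me1 and Pklr the obese TU arrays overlap the lean arrays.

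The spread between arrays also differed between the TU (Cy5) and vehicle (Cy3) channels. With no dye swap, treatment and dye cannot be told apart in this spread. In obese liver all 10 genes had, by their brighter probe, a smaller SD under TU (median 0.32 log2 units) than under vehicle (median 0.67), whereas 58.3% of 26683 probes did so. The dimmer probes of Fasn (1.08 under TU and 0.86 under vehicle) and Me1 (0.95 and 0.39) went the other way. In lean liver 8 of 10 genes had, again by the brighter probe, a larger SD under TU (median 0.31) than under vehicle (median 0.15), against 67.9% of 26869 probes. Pklr had an SD of 0.55 under TU and 1.05 under vehicle in obese liver, and 0.50 and 0.13 in lean liver. For Acly the obese values were 0.30 and 0.92. No test was made of these spreads, which rest on 4 arrays each.

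The ratios of the member genes were correlated pair by pair across the arrays. Of 45 pairs of genes, 44 had a positive Pearson r over the 8 arrays (7 where Acaca was 1 of the pair), with a median of 0.56. The highest was that of Slc25a1 with Mlxipl at 0.97, and the lowest that of Acly with Acaca at -0.053. Pklr followed the median of the other members most closely (r = 0.92) and Acly least (r = 0.50). The points share their arrays and dyes, 2 groups of animals and the wide ratios of obese replicate 2. No such count was made over pairs of other genes, so whether the members stand out from them was not tested. The ratios of 9814 other named genes were ranked by their r with the member median over the 8 arrays. The highest 8 were Gpam (r = 0.98), Bpnt1 (0.98), Pmvk (0.98), Snurf (0.97), Lgals5 (0.96), Krtap1-5 (0.96), Adra1b (0.96) and Arf5 (0.96). The r takes no account of level: Adra1b read 0.20 to 0.29 on the lean arrays, where the member median was below 0. Gpam, the mitochondrial acyltransferase that starts glycerolipid synthesis, read -1.26, -1.99, -0.18 and -0.20 on obese replicates 1 to 4 and -0.71, -0.65, -0.052 and 0.11 on lean replicates 1 to 4.

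Of 49 other genes around the pathway, in 7 lists, 45 were measured. None passed in a TU comparison by its brightest probe, and 39 of 45 (86.7%) lay below 0 in obese liver, against 53.6% of all probes, and 28 of 45 (62.2%) in lean liver, near the 56.0% of all probes. Elovl6, which lengthens palmitate to stearate, had the lowest ratios among them in obese liver (-1.80 ± 0.43 SE, limma adjusted p = 0.121) and read -1.35 in lean liver (adjusted p = 0.158). Its dimmer probe read -1.43 in obese liver and -0.54 in lean liver. The desaturase gene Scd2 read -1.17 in obese liver by its brightest probe (adjusted p = 0.118), where other probes of Scd2 gave -0.11 and -0.025. One dimmer Scd2 probe, outside the rule for naming genes and picked after its value was seen, passed as lower in lean liver (-0.60, adjusted p = 0.0241).

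Obese over lean, 15 of the 45 genes (33.3%) were higher and 1 lower under TU, against 12.8% and 9.36% of all probes, and 17 (37.8%) were higher and 3 lower under vehicle, against 10.3% and 8.07%. With the replicate number as a block under TU, 16 were higher and none lower. Prkag1 did not pass (limma adjusted p = 0.0532), and Scd2 and Cs, the citrate synthase, did (0.0345 and 0.0297). Pdhb, measured on 1 obese array, was no longer counted as lower. Without a block, other probes of Scd2 read -0.035 and -0.0060 under TU. The dimmer Cs probe passed without a block under TU (0.61, adjusted p = 0.00484) and under vehicle (0.73, adjusted p = 0.0120). All 6 genes of desaturation and elongation were higher under vehicle, among them Scd, the stearoyl-CoA desaturase (2.00 ± 0.29 SE, limma adjusted p = 0.00463), Elovl6 (2.44 ± 0.52, adjusted p = 0.0176), Elovl5 (0.96 ± 0.17, adjusted p = 0.00996) and Scd2 (2.96 ± 0.80, adjusted p = 0.0403, with other probes at -0.52 and 0.075). Under TU 4 of the 6 were higher, including Elovl6 (2.00 ± 0.36, adjusted p = 0.00687, with its dimmer probe at 1.01), Fads1 (1.17 ± 0.15) and Fads2 (1.38 ± 0.23). In esterification, 3 of 5 genes were higher in both colours: Gpam by 1.07 under TU and 1.66 under vehicle, Agpat2 by 0.64 and 0.98, and Dgat2 by 1.22 and 1.32.

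The glucose transporter Slc2a2 passed under TU (0.89 ± 0.26 SE, limma adjusted p = 0.0447) and not under vehicle (0.81 ± 0.24, adjusted p = 0.0518). Among the genes that make or hold back mitochondrial acetyl-CoA, the pyruvate dehydrogenase subunit Pdhb gave differences of -1.30 under TU and -1.17 under vehicle. It is counted as lower in both colours, but it was measured on 1 obese array alone, so the fit took its spread from the lean arrays. Pdha1, a further subunit, was lower under vehicle (-0.46 ± 0.12, adjusted p = 0.0349). Dlat, the subunit that forms acetyl-CoA in that complex, was higher (0.90 and 1.59), as was the inhibitory kinase Pdk2 (0.95 and 1.19). Of the regulators of the program, Nr1h2, the liver X receptor beta, was the only one of 10 that passed (0.47 under TU and 0.98 under vehicle), and Srebf1 was not among the named probes analysed here. Of the genes acting on the carboxylases and malonyl-CoA, the AMP kinase subunits Prkab1 and Prkag1 and the malonyl-CoA decarboxylase Mlycd were higher in both colours, by 0.60, 0.47 and 0.65 under TU and 0.55, 0.65 and 0.93 under vehicle. The catalytic subunit Prkaa1 was higher under vehicle alone (0.34 ± 0.091, adjusted p = 0.0385). Mid1ip1, the Thrsp-related partner of acetyl-CoA carboxylase, was lower in obese liver under vehicle (-0.72 ± 0.15, adjusted p = 0.0165), where another probe read 0.18.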

How the data were processed

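Signals were read from the scanner files of 8 dual-colour arrays. Agilent Feature Extraction 10.7.3.1 gave each spot's median pixel intensity and that of its surroundings, per the file headers. The processed intensities and log10 ratios in the deposited files were background-subtracted and dye-normalized by that software, per the file headers, and flag columns hold scores of 0 or 1, per the file headers. The authors' deposited series matrix holds log2 ratios with a normalization not given in the sources used here. On the scanner's log10 ratios their slope was 3.33 to 3.38, so they run as log2 TU over vehicle, and their column medians were 0.0855, 0.0666, 0.0745 and 0.0662 for lean and 0.0792, 0.139, 0.0632 and 0.0459 for obese replicates 1 to 4. The authors' ratios correlated at r = 0.9985 to 0.9999 with log2 ratios of the scanner's processed signals. As settings, the 2 are thus nearly the same data.

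Gene names came from accessions matched to RefSeq annotation of GRCr8. Of 41012 probes, the newer array annotation named 16806 and the older a further 195, and 24011 had no name. In the older version the brighter Me1 probe and the Acss2 probe carry other accessions.

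Signals were corrected with normexp (offset 50) and loess in limma 3.58.1 (R 4.3.3), with Aquantile for single channels. Local backgrounds that the scanner software flagged as outliers, 1.98% to 2.63% of spots, were replaced by the array's median. This was chosen after seeing that a few of them, up to 65529 units, drove the correction on 3 arrays: on obese replicate 3 the corrected Cy3 median was 76.5 with the replacement and 817 without. Non-uniform spots and controls were left out, and 26981 probes passed the filter. TU ratios were fitted with lmFit and eBayes, 1 mean for each genotype over all 8 arrays, and obese over lean within each channel. Whether replicate numbers pair obese with lean arrays was checked by the correlation of their deviations from the group means over all probes. In Cy5 it was 0.62, 0.19, 0.43 and 0.24 for numbers 1 to 4, all above 0.1. Calls in Cy5 are counted without a block, and the block's result is given where it changes a member or pathway call. Marker counts are given without a block, and the marker genes whose calls it changed are named. The labels give no link, and Cy3 and the ratios did not pass that check. Benjamini-Hochberg adjustment ran over all probes, with a threshold of 0.05. The small number of arrays limits precision.

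All 10 members were named with every probe. Genes of the 7 pathway lists were named where they passed, with at most 2 per list and comparison of lowest unadjusted p otherwise, by the brightest passing probe. Some genes that this rule names are counted but not reported by name here. The 8 genes of likeness had the highest Pearson r. The members, the 7 pathway lists and the 8 marker lists (hepatocyte, adipocyte, Kupffer cell, erythroid, stellate, endothelial, cholangiocyte and pancreas) were chosen with earlier results of these data known. Figures were drawn with matplotlib 3.10.9.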

Additional observations from a re-analysis of the deposited data

Results flagged for a closer look

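Of 69 groups of 4 arrays checked (each member probe's ratio and its level in each colour, per genotype), 5 held 1 array far from the other 3, by a gap above Dixon's 95% limit for 4 values. Chance alone marks about 1 in 20 such groups. Acaca was marked on obese replicate 2 both for its log2 ratio, -1.36 against -0.16 to 0.074 on the other obese arrays, and for its vehicle level, 8.62 against 7.21 to 7.39. The dimmer Me1 probe was marked for its ratio on obese replicate 4, 0.094 against -1.50 to -1.37, and for its vehicle level on obese replicate 3, 12.03 against 12.79 to 12.82. Acly was marked for its vehicle level on lean replicate 2, 14.81 against 14.28 to 14.37. No member probe differed between the genotypes in its TU response by the test of that difference, and none had all arrays of one genotype above 0 and all of the other below it.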

How the results depend on the processing

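In the settings tried, the member medians kept their sign with 1 exception. Median centring instead of loess gave a lean median of -0.67, and the obese minus lean median was 0.0025. The median of all probes in that difference then moved to 0.15, Slc25a1 to 0.22 and Mlxipl to 0.30, and in lean liver Acaca stood at -0.042 and Acacb at 0.0010. For Acaca under TU, obese over lean was -0.011 without background correction, -0.32 from processed signals and -0.026 with local backgrounds as deposited (chosen after seeing the data). The counts of probes called moved more, and the cause was not tested. In lean liver 274 probes (173 higher, 101 lower) became 3103 with median centring (172 and 2931), 794 with scaled ratios, 178 with the filter on all 8 arrays, 1138 with one genotype alone, 48 with local backgrounds as deposited, 37 with a replicate block and 0 with trend and robust settings (limma, 4050 at an unadjusted p under 0.05). From processed signals the split was 142 and 134, and from the authors' ratios, which are nearly the same data, 144 and 134. In obese liver 12 (10 higher, 2 lower) became 23 without background correction, 237 with median centring (230 and 7), 209 from processed signals (152 and 57), 203 from the authors' ratios (147 and 56), 484 with scaled ratios (293 and 191), 6 without a filter and 3 with local backgrounds as deposited. It was 0 with trend and robust settings, a replicate block and one genotype alone (limma, 4226, 4517 and 2851 at an unadjusted p under 0.05). For the difference between genotypes 0 (limma, 2534 unadjusted) became 470 with median centring, 2 from processed signals, 2 from the authors' ratios and 1 with local backgrounds as deposited. Under vehicle 4933 became 2823 with a replicate block, which also moved the members called there to 2. Same-numbered arrays correlated with r from -0.12 to 0.082 in the ratios and -0.035 to 0.63 in Cy3, below the limit for pairing in at least 1 number each, and not every array matched its own number best. In Cy5 all 4 were above it, though obese replicate 2 matched lean replicate 3 best. There the replicate block gave 5675 probes against 5962 and changed no member call beside those of Acss2 and Mlxipl. Leaving out 1 array at a time gave 3 to 1701 probes in lean liver, 0 to 22 in obese liver, 0 to 2 for the difference, 2317 to 7046 under vehicle and 3885 to 9057 under TU. The member medians then ran from -0.50 to -0.27, -0.95 to -0.39, -0.39 to -0.00046, 0.93 to 1.38 and 0.50 to 0.73. Signs then turned for some probes, whose lowest and highest values follow, with the arrays whose loss turned them. In lean liver the dimmer Me1 probe ran from -0.19 to 0.17 (lean 2). The difference between genotypes ran from -0.056 to 0.45 for Acly (lean 2, -0.040, and obese 3), -0.080 to 0.48 for Thrsp (lean 2, -0.019, and obese 3), -0.13 to 0.52 for the brighter Fasn probe (obese 4), -0.48 to 0.014 for Slc25a1 (obese 2) and -0.30 to 0.079 for Mlxipl (obese 2). Obese over lean under TU ran from -0.028 to 0.051 for Acaca (obese 4, and lean 2, -0.022) and from -0.021 to 0.51 for the brighter Me1 probe (obese 4). No dye swap, 1 slide per genotype and signal near background for Acacb limit these results.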

Other observations

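Markers of other cell types gave these median log2 differences, with the number of genes that passed the filter. TU over vehicle, Kupffer cell and macrophage markers (7) stood at -0.24 in obese liver and -0.16 in lean liver, stellate cell markers (5) at -0.0095 and -0.27, sinusoidal endothelium (3) at -0.064 and -0.15, adipocyte markers (4) at 0.16 and 0.056, cholangiocyte markers (2) at -0.0047 and -0.015, and pancreas markers (2) at 0.18 and -0.052. Hepatocyte markers (9) stood at -0.0058 in obese liver and 0.20 in lean liver, with 1 gene higher in each, and erythroid markers (3) at -0.26 and 0.83 with none passing. Obese over lean, the hepatocyte median was -0.12 under TU and 0.047 under vehicle, that of adipocyte markers -0.092 and -0.026, and that of erythroid markers -0.29 and 0.93. These medians cover mixed members: of 35 markers 5 were higher and 6 lower under TU, against 12.8% and 9.36% of all probes. Under vehicle 4 were higher and 2 lower, against 10.3% and 8.07%. Under TU the sinusoidal endothelium had 2 of 3 genes lower (median -0.23), stellate cells 2 of 5 higher and 1 lower, and adipocytes 1 of 4 higher and 2 lower. With the replicate number as a block Pecam1 (limma adjusted p = 0.0740) and Col1a1 (0.0535) no longer passed, and Marco passed as lower (0.0198). Without a block, the dimmer probes of Lyve1 (-0.34) and Col1a1 (0.30, against 1.96 by the brightest) did not pass, and that of Lrat did (-0.32). The part of these markers in the member differences was not tested.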
